A study of Mus musculus with 2 samples.

Results

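Mir335 is the gene of 1 microRNA hairpin, which lies inside an intron of Mest. The locus was selected on its measured level in these libraries, as the row with the gene symbol Mir335, and it is 1 of 1973 gene rows in the count tables. Small RNA under 30 nt was sequenced from the midbrain of B6NCrl mouse embryos at embryonic day 13.5, with male and female embryos pooled. The series has 1 group of 2 biological replicates (n = 2) with no treatment, no altered allele and no other tissue or age. Both replicates carry the same donor record and are labelled as separate tissue samples, and a p-value here measures only the difference between these 2 libraries.

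MicroRNAs are short RNAs cut from a hairpin by the enzymes Drosha and Dicer; the arm that is loaded into an Argonaute protein pairs with messenger RNAs, mainly through its seed (bases 2 to 8), and lowers their output. Mest, also called Peg1, encodes a protein of the alpha/beta hydrolase fold and is a classical imprinted gene, expressed from the paternal chromosome and known from mesoderm and from the embryonic brain. An intronic microRNA is usually made from the transcript of its host gene. The miR-335 microRNA itself is best known as a suppressor of metastasis that targets Sox4 and tenascin C. Neither the parental origin of the reads nor the Mest messenger RNA was measured in these libraries.

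The sequences below show what a Mir335 read can come from and why such reads can be assigned to 1 place. They are RefSeq entries on GRCm38.p6 (the mm10 assembly), plus strand, written 5′ to 3′. The hairpin occupies chr6:30741299-30741396, with its mature arms in capitals:
Mir335 hairpin: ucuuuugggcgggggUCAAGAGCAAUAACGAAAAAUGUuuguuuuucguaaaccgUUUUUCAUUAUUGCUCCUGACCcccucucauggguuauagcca
The arms are shown again with the seed in capitals, the first from 30741314 to 30741336 and the other from 30741354 to 30741375:
mmu-miR-335-5p: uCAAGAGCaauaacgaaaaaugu
mmu-miR-335-3p: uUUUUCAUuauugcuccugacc
The 5p arm has 23 bases and the 3p arm 22, with 17 bases of loop between them. Both are poor in G and C, at 30.4% and 36.4%, against 42.9% for the whole hairpin. In the fold predicted by RNAfold, 18 bases of the 5p arm pair with bases of the 3p arm. The predicted energy was -44.3 kcal/mol, or -45.2 per 100 nt, against a median of -40.6 per 100 nt over 1005 RefSeq mouse hairpins, of which 300 had a lower value.

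Neither seed of Mir335 is shared. Among the 1738 mature mouse sequences of the RefSeq table, 0 others have the 5p seed and 0 others the 3p seed. Bases 2 to 7 of the 5p arm recur in miR-7646-5p, whose gene has 0 rows in the tables. Those of the 3p arm recur in miR-6986-3p, whose locus Mir6986 stood at 2.32 CPM (CPM, same-strand counts scaled to a common total of the gene rows). In the RefSeq table as a whole, 603 of 1058 hairpins (57.0%) share none of their seeds with another. Among the top 20 loci by mean level this holds for 4, which are Mir335, Mir487b, Mir126a and Mir135b.

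The hairpin is also distinct over its whole length. Its longest exact run in common with any of 2208 other annotated microRNA transcripts, on either strand, was 14 nt, and it is shared with the predicted loci Gm23952, Gm24017 and Gm24300. The complete 5p and 3p sequences occurred in 0 other genes each when 141767 GENCODE transcripts were searched on both strands. Intergenic and intronic sequence was not searched. Of the top 20 loci, 3 (Mir487b, Mir30e and Mir126a) share a run of 20 nt or more with another hairpin, on either strand. The position of the other hairpin was not compared, and an antisense hairpin at the same place would also count as sharing. Whether reads of these loci are lost as multimapping was therefore not tested.

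Within Mest, Mir335 (ENSMUSG00000065501.1) is intronic and on the strand of its host. Mest spans chromosome 6 from 30723547 to 30748465 in GENCODE M21, with 11 transcripts, and the hairpin lies in an intron of 7 of them. All 7 use the same intron, from 30740825 to 30742140, a length of 1316 nt. The hairpin starts 474 nt after the upstream exon and ends 744 nt before the downstream exon, and 0 exons overlap it. This intron is number 1, 2 or 3 depending on the transcript. The starts of the 7 transcripts lie from 517 to 17752 nt upstream of the hairpin.

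**Figure D1:**
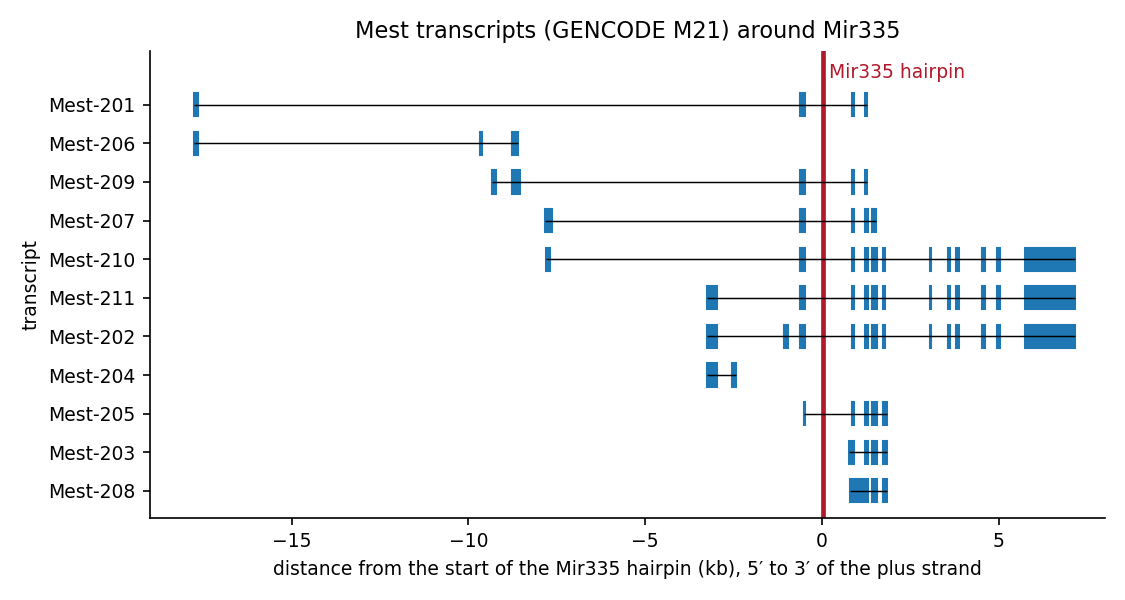
Exons (blue) of the 11 annotated Mest transcripts and the Mir335 hairpin (red), by distance in kb from the start of the hairpin. The hairpin falls in an intron of 1316 nt in 7 transcripts, and the other 4 end before it or begin after it.

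Mir335 took more than 5% of all counts in each library. It had 289737 counts of 5093743 in replicate 1 and 165102 of 2935841 in replicate 2. These are 56881 and 56237 CPM, a mean of 56559 ± 456 CPM (SD, n = 2). As a share, replicate 1 gave 5.69% (95% exact Clopper-Pearson interval 5.67 to 5.71) and replicate 2 gave 5.62% (5.60 to 5.65), so that 1 count in 17.6 and 1 in 17.8 came from this locus. The intervals do not overlap, but they cover counting error only. No molecular identifiers were given, so repeated copies of a molecule could not be set apart and the intervals may be too narrow. In total the 1888 lowest rows, 95.7% of the table, held no more counts than Mir335 did. The median of the 719 rows with any count was 3.95 CPM.

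The reads were almost wholly in the column taken as the strand of Mest. Opposite-strand counts at Mir335 were 3 in replicate 1 and 2 in replicate 2, or 0.00104% and 0.00121% of its reads. Over all gene rows the opposite strand took 2.28% and 2.12%. Which column holds the same strand was inferred from the values, so these shares are not an independent test of the strand. Both arms fall in 1 count, so the tables do not tell which arm was more abundant.

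Mir335 ranked 2 in replicate 1, 2 in replicate 2 and 2 by the mean. Only Mir99a, in an intron of the noncoding Mir99ahg, stood above it, 3.61-fold higher in replicate 1 and 3.80-fold higher in replicate 2. Mir100, of the same family as Mir99a, came next at 50553 and 53960 CPM. Mir335 exceeded it by 6328 CPM in replicate 1 and by 2277 CPM in replicate 2, ratios of 1.13 and 1.04. The values of the pair do not overlap, and 0 lower-ranked loci reached the lower Mir335 value in either replicate. With 2 replicates and a locus chosen for its level, this order is a description and was not tested.

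Below Mir100 the distance to Mir335 grew. Mirlet7g, a let-7 locus in an intron of Wdr82, stood at 44034 and 47053 CPM. Mir17, of the proliferation-linked miR-17/92 cluster, had 46803 and 37165 CPM, and its ranges with Mirlet7g overlap. Mir130a followed at 34720 and 36716 CPM and Mir99b, the locus in Spaca6, at 29483 and 32347 CPM. The mean of Mir335 was 1.24-fold that of Mirlet7g, 1.35-fold that of Mir17, 1.58-fold that of Mir130a and 1.83-fold that of Mir99b.

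**Figure D2:**
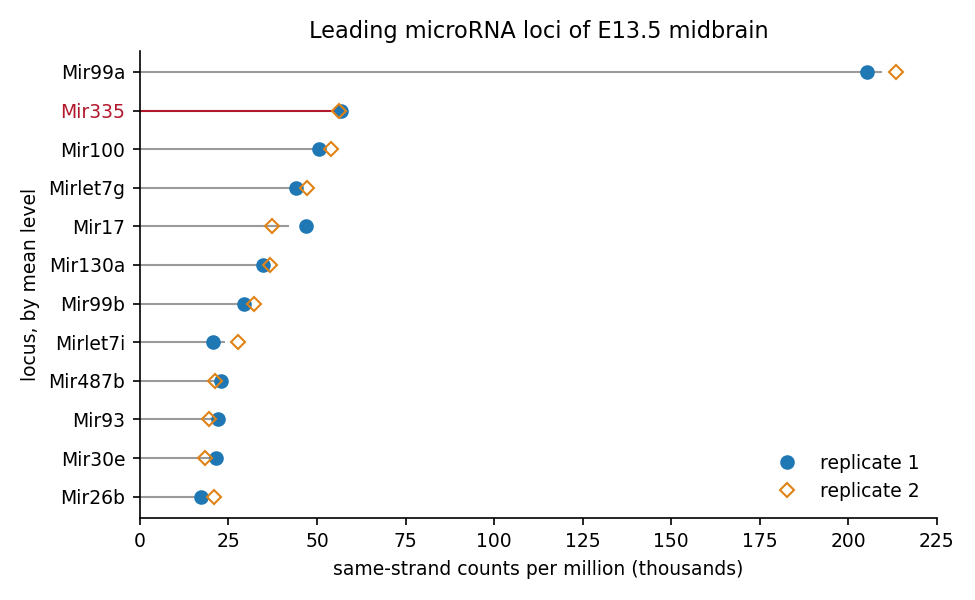
Level of the 12 leading loci in units of 1000 CPM, with a filled circle for replicate 1, an open diamond for replicate 2 and a line to the mean. Mir335 (red) lies at 56881 and 56237 CPM, between Mir99a and Mir100, with its symbols nearly on top of each other.

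The position at rank 2 belongs to single loci with reads that map to 1 place. Reads that mapped to several places are left out of every locus count and numbered 3827354 in replicate 1 and 2590773 in replicate 2, or 13.2 and 15.7 times the Mir335 count. Their loci are not given in the tables, and a microRNA made from identical copies could rank higher with them. When loci that share a seed were summed, an alternative chosen after seeing the data, Mir335 ranked 4. The 3 loci of the Mir99a and Mir100 family led with 292660 CPM, the 6 loci with the seed of Mir17 and Mir93 had 93975 CPM and the 9 loci of let-7 and Mir98 had 80705 CPM. Mir335 was the only single locus among the first 5 sets, and the 4 loci with the seed of Mir130a came next with 48080 CPM.

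Replicate agreement at Mir335 was close. Scaled by total counts, the coefficient of variation was 0.805%, and 0 of the other top 20 loci had a smaller one, with a median of 5.66% and a highest value of 20.3% over the 20. With TMM scaling, which sets the bulk of loci equal, it was 2.47%, and 4 of the top 20 (Mir487b, Mir181c, Mir106b and Mir135b) had a smaller one. By total counts, the log2 ratio of replicate 1 to replicate 2 was 0.016 (95% exact interval 0.0077 to 0.025), a 1.01-fold difference. Of 205 loci with a mean of 100 CPM or more, 7 had a ratio nearer to 0, and the median absolute log2 ratio over the 205 was 0.16.

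That ratio has no fixed direction. With TMM scaling the log2 ratio was -0.050 (-0.059 to -0.042), a 1.04-fold higher value in replicate 2, and 32 of the 205 loci had a ratio nearer to 0. The exact conditional binomial test gave an adjusted p of 1.18e-28 with TMM and 0.000815 with total counts (Benjamini-Hochberg over 466 loci with at least 10 counts), in opposite directions. The same test called 177 of the 466 loci (38.0%), so a call is not particular to Mir335. It compares 2 libraries by counting error alone and takes in no spread between samples; with counts this deep, a difference of 1% passes. Over the 466 loci the common biological coefficient of variation was 0.158 by edgeR.

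**Figure D3:**
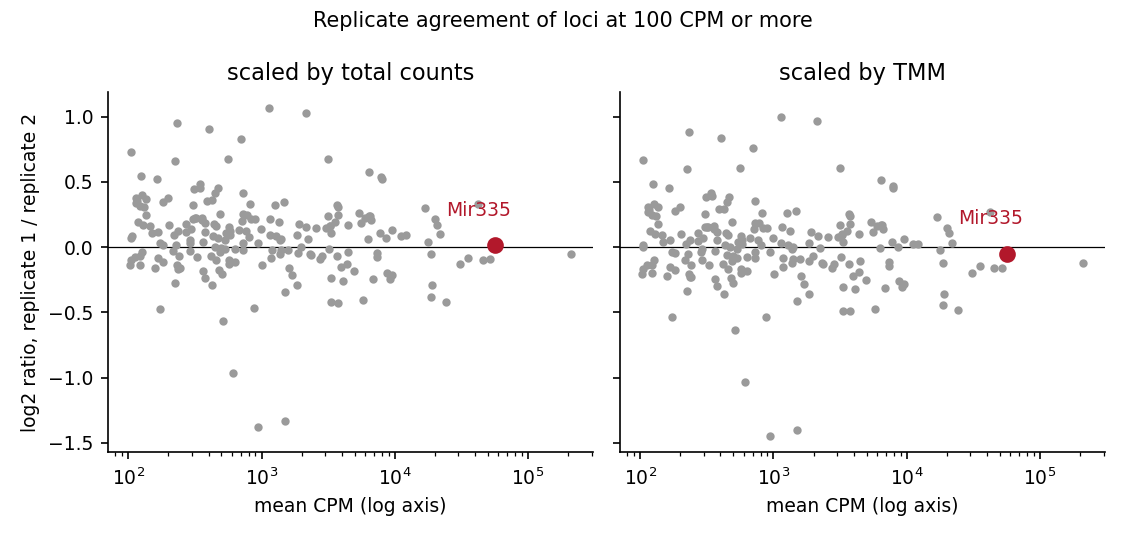
Log2 ratio of replicate 1 to replicate 2 against mean CPM (log axis) for the 205 loci at 100 CPM or more, scaled by total counts (left) and by TMM (right). Mir335 (red) lies at 0.016 on the left and -0.050 on the right, inside the band of the other loci.

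The 5 loci of at least 1000 CPM whose log2 ratio, scaled by total counts, lay nearest to that of Mir335 were Mir125b-2, Mir181c, Mir298, Mir188 and Mir1193. Mir125b-2, a lin-4 family locus in Mir99ahg, differed from it by 0.019, Mir181c by 0.026, Mir298 by 0.028, and Mir188 and Mir1193 by 0.036 each. Over 2 libraries of 1 tissue this measure says only that the pair of values moved alike. Mir298, of the Gnas region, and Mir1193, of the Dlk1-Dio3 region, are imprinted loci as well. Of 202 microRNA rows at 100 CPM or more in both replicates, 42 lay in the imprinted regions, Mir335 included. Over all 1894 microRNA rows, 171 lay there. The Dlk1-Dio3 region alone held 34 of the 42. The nearest loci were drawn at the higher level of 1000 CPM, and whether imprinted loci are more frequent among them was not tested.

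Among loci in introns of protein-coding genes Mir335 was the highest. Of 661 such microRNA rows on the strand of the host, 329 had counts, 69 reached 100 CPM in both replicates, and together they held 36.4% ± 0.517 of all counts. Mir335 made up 15.8% of that sum in replicate 1 and 15.3% in replicate 2, and the other 660 had smaller means. Its first place follows from its rank among all rows, because the only locus above it, Mir99a, lies in an intron of a noncoding gene. After Mirlet7g and Mir99b came Mir30e, in Nfyc, at 21417 and 18440 CPM, Mir26b, in Ctdsp1, at 17107 and 20954 CPM, and Mir149, in Gpc1, at 18501 and 19218 CPM. By the mean, Mir335 was 2.84-fold higher than Mir30e and 2.97-fold higher than Mir26b, and Mir149 lay just below Mir26b at 18860 ± 507 CPM. Its intron is short for this set: of 70 hosted loci with a mean of at least 100 CPM, 5 lie in a shorter intron, and the median is 11936 nt. Mir26b is one of those 5, with an intron of 564 nt.

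**Figure D4:**
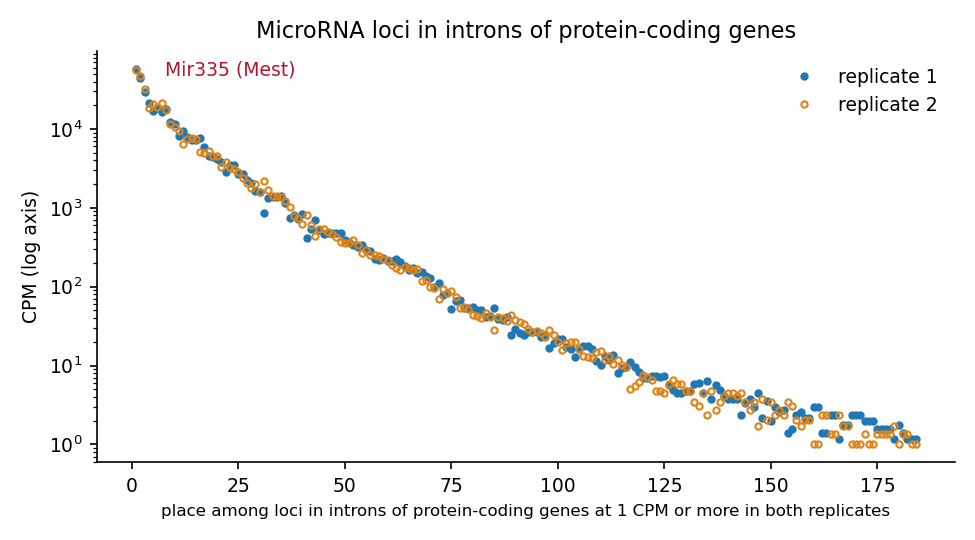
Level in CPM (log axis) of the 184 microRNA loci in introns of protein-coding genes that reached 1 CPM in both replicates, ordered by mean level, with filled points for replicate 1 and open points for replicate 2. Mir335, in Mest, is first at 56881 and 56237 CPM, followed by Mirlet7g in Wdr82.

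Mir335 was the largest single source of counts in the imprinted microRNA regions compared here. That too follows from its rank among all rows, because Mir99a lies outside these regions. Besides Mest, 4 regions were compared: the maternally expressed Dlk1-Dio3 region, the paternally expressed Sfmbt2 intron cluster, Mir296 and Mir298 of the paternally expressed Gnas antisense region, and Mir483 with Mir675 of Igf2 and H19. The parental labels are background from the literature of these loci, not a measurement. Together with Mir335 they held 171 rows and 15.1% ± 0.653 of all counts. Mir335 was 36.5% of that sum in replicate 1 and 38.4% in replicate 2.

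The Dlk1-Dio3 region, with 59 rows of which 49 had counts, exceeded Mir335 in sum but not at any locus. Its share was 8.43% in replicate 1 and 7.56% in replicate 2, 1.48 and 1.34 times that of Mir335. Its highest locus, Mir487b, had 22765 and 21219 CPM, so the mean of Mir335 was 2.57-fold higher. Mir369 (8800 and 8380 CPM), Mir382 (7053 and 6114 CPM) and Mir127 (7059 and 5980 CPM) followed. The summed region was higher in replicate 1, with a log2 ratio of 0.16 by total counts, against 0.016 for Mir335.

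Imprinted loci known from the paternal chromosome were lower than Mir335 throughout. Mir296 had 5931 and 5216 CPM and Mir298 had 3222 and 3248 CPM, which puts Mir335 10.1-fold and 17.5-fold higher. The Sfmbt2 cluster, known for its expression in placenta, had 107 rows, 28 of them with counts, and a summed share of 0.531% and 0.611%, which is 0.0933 and 0.109 times the share of Mir335. Mir467c, its highest locus, stood at 1648 and 2015 CPM, Mir467d at 1324 and 1684 CPM, Mir467e at 1360 and 1410 CPM and Mir669o at 482 and 496 CPM. These hairpins have near-identical copies, so their counts are uncertain. Mir483, in an intron of Igf2, stood at 77.7 and 93.3 CPM, and the maternal H19 product Mir675 at 12.4 and 9.54 CPM.

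**Figure D5:**
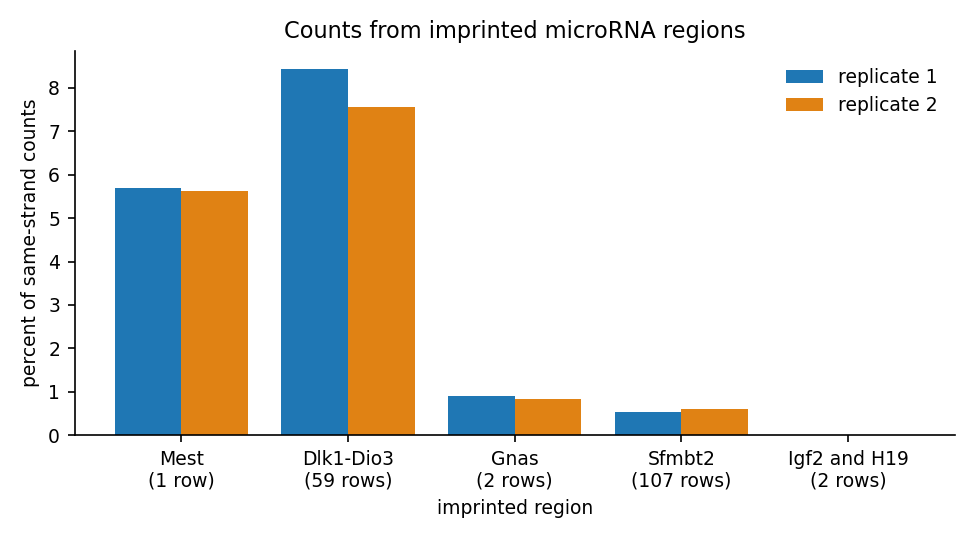
Percent of all same-strand counts from each imprinted microRNA region, with blue bars for replicate 1 and orange bars for replicate 2. The single Mest row (5.69% and 5.62%) lies below the 59 rows of Dlk1-Dio3 (8.43% and 7.56%) and above the 3 other regions.

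Mir335 dominated the counts of its chromosome, and each of its neighbours within 1 Mb was far lower than it. That it is the highest locus there follows from its rank among all rows, because Mir99a lies on chromosome 16. Of the 80 microRNA rows on chromosome 6, 26 had counts, and Mir335 held 95.3% of their sum in replicate 1 and 96.1% in replicate 2. Another 6 microRNA rows lie within 1 Mb of it, all but Gm23049 on the opposite strand. On the upstream side, Mir183, Mir96 and Mir182, the sensory-organ cluster, lie 571562 to 575307 nt away. Mir183 had 1032 and 937 CPM, Mir96 had 340 and 291 CPM, and Mir182 had 893 and 502 CPM. Mir182 was the neighbour that differed most between the replicates, with a log2 ratio of 0.83 by total counts, while Mir335 differed by 0.016. On the downstream side, Mir29a, of a family known to rise late in brain maturation, lies 321264 nt away and had 125 and 128 CPM. Mir29b-1 had 4 and 2 counts, but miR-29b is also made from Mir29b-2 (1.18 and 1.70 CPM), so that its reads can map to several places. Gm23049, upstream of Mir335, had 0 counts in both replicates, which, at a limit of 3 counts, allows levels of up to 0.589 and 1.02 CPM.

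Markers of the tissue were present with gaps. Of 15 neural rows, 11 reached 100 CPM in both replicates, led by Mir135b, Mir92b and Mir137, and the list held 3.40% and 3.18% of counts. Of the classical loci of neural progenitors and neurons among them, Mir9-3 had 401 and 353 CPM, while Mir9-2 and the 3 Mir124a loci were below 10 CPM; the mature miR-9 and miR-124 are each made from several loci, so that their reads can map to several places. Mesenchymal and mural loci, the markers closest to the mesodermal expression known for Mest, had counts at all 7 rows. Of these rows, 4 reached 100 CPM in both replicates. Together the 7 rows held 0.897% and 1.08% of counts. That sum was lower in replicate 1, with a log2 ratio of -0.27 by total counts. Mir143 led with 4991 and 6626 CPM, while Mir140 differed less between the replicates, at 3582 and 3752 CPM. Mir199a-1 had 1 count in each replicate, but miR-199a is also made from Mir199a-2, so that its reads can map to several places. Endothelial Mir126a held 1.63% and 2.12%. Liver Mir122 and the muscle, erythroid and leukocyte lists each held less than 0.05%. Mir122 had 58.9 CPM in replicate 1 and 139 CPM in replicate 2. In the leukocyte list, Mir142 and Mir142hg had no row, so that its share leaves them out. Its Mir155 (147 and 124 CPM) and Mir223 (144 and 200 CPM) reached 100 CPM in both replicates. In the muscle list, Mir1a-1, Mir133a-1 and Mir133a-2 had 0 counts, Mir1a-2 had no row, and Mir208b led with 39.3 and 40.9 CPM. The mature miR-1a and miR-133a are likewise each made from more than 1 locus, so that these 0 counts do not show absence. Which cell types supplied the Mir335 reads was not tested, and in bulk tissue fewer cells of a type and less RNA per cell cannot be told apart.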

How the data were processed

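The deposited files are 1 table of raw read counts per gene for each sample. Per the file headers, they use assembly mm10 and annotation M4; the aligner, trimming and counting settings were not given in the sources used here. Of the 3 count columns, the same-strand column was used; the strand of the columns was inferred from the values. Multimapping, unmapped and unassigned reads (54.3% and 57.2% of all reads) were not part of library totals. CPM was computed over all gene rows.

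Names and coordinates came from GENCODE M21 (1894 of 1973 IDs matched) and sequences from RefSeq. The Mir335 row has the same ID version in both annotations. A row was intronic in a host on its strand where it overlapped no exon of that host. A protein-coding host of this kind took precedence, even where an exon of another host overlapped the row. Intron length was that of the shortest annotated intron that holds the row. Folds were predicted with RNAfold 2.7.2.

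With 1 group, no contrast could be fitted. The libraries were compared per locus with an exact conditional binomial test (two-sided, scipy 1.17.1) on 466 loci with at least 10 counts, with TMM factors from edgeR 4.0.16 and Benjamini-Hochberg adjustment at 0.05. Ratios used a pseudocount of 0.5 CPM. Alternatives included DESeq2 1.42.0 size factors, total counts, unstranded counts, other denominators, thinning and each replicate left out. Named loci were the 1 above and the 5 below Mir335, the 5 nearest in ratio, rows within 1 Mb, the 5 highest other hosted loci and the 4 highest of each imprinted region. The locus and the lists were chosen with earlier results of these data known.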

Additional observations from a re-analysis of the deposited data

How the results depend on the processing

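The level of Mir335 follows the denominator. It was 31176 CPM with multimapping reads added, 25028 CPM over all reads, 71547 CPM without Mir99a and 55314 CPM with unstranded counts. Its rank was 2 in 5 alternatives (unstranded counts, TMM scaling, at least 100 counts, each replicate left out) and 4, in an alternative added after seeing the data, with loci of a shared seed summed. The log2 ratio between replicates turned from -0.050 to 0.016 with total counts only; it stayed negative, from -0.054 to -0.018, in the other 4 alternatives, and passed the test in all 5. Its share of imprinted-region counts was 34.5% with unstranded counts, in place of 37.5%. Requiring a fold of at least 1.5 left 34 of the 177 called loci; Mir335 is not among them. Total counts split the calls 112 and 69 (higher in replicate 1 and in replicate 2) in place of 87 and 90. At the depth of these libraries counting error at Mir335 is small, so 2 replicates set the precision.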
